A study of Rattus norvegicus with 6 samples.

Results

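Mitochondria keep a small circular genome that encodes core, membrane-embedded subunits of the respiratory chain. The 10 genes described here are the mitochondrially encoded subunits of complex I (mt-Nd1, mt-Nd2, mt-Nd4, mt-Nd5 and mt-Nd6), complex III (mt-Cytb), complex IV (mt-Co1, mt-Co2 and mt-Co3) and ATP synthase, also called complex V (mt-Atp6). They were chosen by identifier from a fixed list that pairs each identifier with its symbol, and they are 10 of the 30452 genes listed. The rule uses identifiers and no measured value, though the group was proposed with earlier results of these data known.

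The data are RNA sequencing of rat bone marrow mesenchymal stromal cells, adherent marrow cells that can form bone, cartilage and fat cells. All cells were wild type (WT) and came from osteogenic differentiation cultures. The 3 control libraries were from cells labelled Blank, without the material, and the 3 hydrogel libraries from cells in co-culture with AAT-ZCG hydrogel, an enzyme-linked gel meant to treat diabetic bone defects, whose abbreviated name the labels do not spell out. The labels used here name no strain, age, dose or time of culture, and do not tie a library to its own culture or animal. The p-values therefore describe the spread among these 6 libraries, part of which may be technical. The labelled cell type was not checked against its markers, because the identifiers could not be paired with gene names beyond the 10.

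As background, both strands of the mitochondrial genome are transcribed as long precursors, which are then cut into single mRNAs, mostly at the tRNAs that lie between them. The genes therefore start from shared transcripts, and their steady levels also depend on processing and decay of each mRNA. Along the heavy-strand precursor the order is mt-Nd1, mt-Nd2, mt-Co1, mt-Co2, mt-Atp6, mt-Co3, mt-Nd4, mt-Nd5 and mt-Cytb, while mt-Nd6 lies on the opposite strand between mt-Nd5 and mt-Cytb. Complex I passes electrons from NADH to ubiquinone, complex III from ubiquinol to cytochrome c, and complex IV from cytochrome c to oxygen. These complexes pump protons, and ATP synthase uses the resulting gradient to make ATP. Most other subunits of these complexes are encoded in the nucleus, and the shift of stromal cells towards bone formation is known for greater use of oxidative metabolism.

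As an identity check, the length implied by each gene's count, its FPKM (the count scaled by gene length and library total) and the library total was taken. Only 4 of the 10 genes came with a length to compare, so the identity of the others rests on the list. The implied lengths were 1545 bp for mt-Co1 (ENSRNOG00000034234), 684 bp for mt-Co2 (ENSRNOG00000030371), 784 bp for mt-Co3 (ENSRNOG00000030700) and 1143 bp for mt-Cytb (ENSRNOG00000031766), which equal the 4 lengths given with the list. They were 955 bp for mt-Nd1 (ENSRNOG00000030644), 1039 bp for mt-Nd2 (ENSRNOG00000031033) and 1378 bp for mt-Nd4 (ENSRNOG00000029707). They were 1830 bp for mt-Nd5 (ENSRNOG00000029971), 519 bp for mt-Nd6 (ENSRNOG00000029042) and 681 bp for mt-Atp6 (ENSRNOG00000031979). The same length was obtained in all 6 libraries for each gene, with a relative difference of at most 3.32e-11. This follows from FPKM being made with 1 length per gene and is no check of identity. The lengths of mt-Nd1, mt-Nd2, mt-Co3 and mt-Nd4 leave a remainder of 1 when divided by 3. As background, mammalian mitochondrial mRNAs can lack a full stop codon, which the poly(A) tail then completes.

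The mRNAs of cytochrome c oxidase, complex IV, rose with hydrogel while those of most complex I subunits and of ATP synthase did not rise with them. Summed over the 3 complex IV genes, the level went from 37779 ± 773 to 51768 ± 1499 FPKM (SD, n = 3), 1.37 times the control mean. Summed over the other 7 genes it was 25756 ± 304 FPKM in controls and 25697 ± 245 FPKM with hydrogel (exact two-sided permutation p = 0.9), and the libraries of the groups overlapped. Within these 7, the complex I sum was lower with hydrogel, at 11740.3 ± 81 against 12394 ± 180.3 FPKM, and mt-Cytb of complex III was higher, at 5982 ± 153 against 5427 ± 17.4 FPKM, neither with overlap (SD, n = 3, exact permutation p = 0.1 each, the smallest possible). The difference in the sum of all 10, 13929 FPKM, was thus about the 13989 FPKM of the complex IV genes. FPKM is scaled by library total alone, and the overlap and permutation p of the 7-gene sum hold for that scaling. The edgeR tests below use another scaling, TMM. Its factors were 1.003 to 1.017 in controls and 0.987 to 0.994 with hydrogel, which raises hydrogel levels relative to controls. With FPKM rescaled by these factors, the sum of all 10 differed by 15186 FPKM. No test was run on a rescaled 7-gene sum. Divided by these factors, the 7-gene sums of the hydrogel libraries all lie above those of the controls, by a narrow margin. The overlap of the 7-gene sum thus does not carry over to TMM.

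The genes were tested with edgeR's quasi-likelihood test on the counts, over all 14715 genes that passed a filter on low counts, with p-values adjusted over all of them (Benjamini-Hochberg) and a call at an adjusted p under 0.05. All 10 passed the filter. Of the 10, 6 rose (mt-Co1, mt-Co2, mt-Co3, mt-Cytb, mt-Nd5 and mt-Nd6), 1 fell (mt-Nd4) and 3 were not called (mt-Nd1, mt-Nd2 and mt-Atp6). Over all genes tested 34.5% were called, 17.5% higher and 17.1% lower. The 10 are very abundant, and abundant genes were called more often: of the 79 other genes that averaged 1000 CPM or more (CPM being the count scaled to a common library size, here by TMM), 74.7% were called, 38% higher and 36.7% lower. The 7 calls among 10 are therefore near the share in abundant genes and are no result about the group. The median log2 fold change of the 10 was 0.15, beside 0.002 over all genes tested and -0.002 over the 79 abundant genes. Their median absolute log2 fold change was 0.24, beside 0.21 and 0.29.

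The products of mt-Co1, mt-Co2 and mt-Co3 form the core of cytochrome c oxidase, and those of mt-Co1 and mt-Co2 hold its metal centres. The level of mt-Co3 was 10533, 10930.2 and 11213 FPKM in control libraries 1, 2 and 3 and 17033, 16139.9 and 17757 FPKM in hydrogel libraries 1, 2 and 3. Every hydrogel library lay above every control, and hydrogel 2 was the lowest of its group. For mt-Co3 the edgeR log2 fold change was 0.67 (SE 0.04, 1.59-fold, adjusted p = 3.94e-09), the largest of the 10. Of the 79 abundant other genes, 9 changed by more.

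The level of mt-Co2 was 9994, 10559.8 and 10285 FPKM in the controls and 13710.0, 13281 and 13965 FPKM with hydrogel. The groups did not overlap, and the control and hydrogel values each spanned a narrow range, with coefficients of variation of 2.75% and 2.53%. In edgeR it rose by 0.44 on the log2 scale (SE 0.04, 1.35-fold, adjusted p = 1.38e-07). The level of mt-Co1, the gene with the most counts of all genes in these libraries, was 16395, 16502 and 16925 FPKM in the controls and 21605, 20644 and 21169 FPKM with hydrogel. Again all hydrogel libraries lay above all controls, with hydrogel 2 the lowest of its group, as for mt-Co2. In edgeR mt-Co1 rose by 0.37 on the log2 scale (SE 0.03, 1.30-fold, adjusted p = 1.31e-07). Among the 79 abundant other genes, 23 changed by more than mt-Co2 and 28 by more than mt-Co1.

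**Figure D1:**
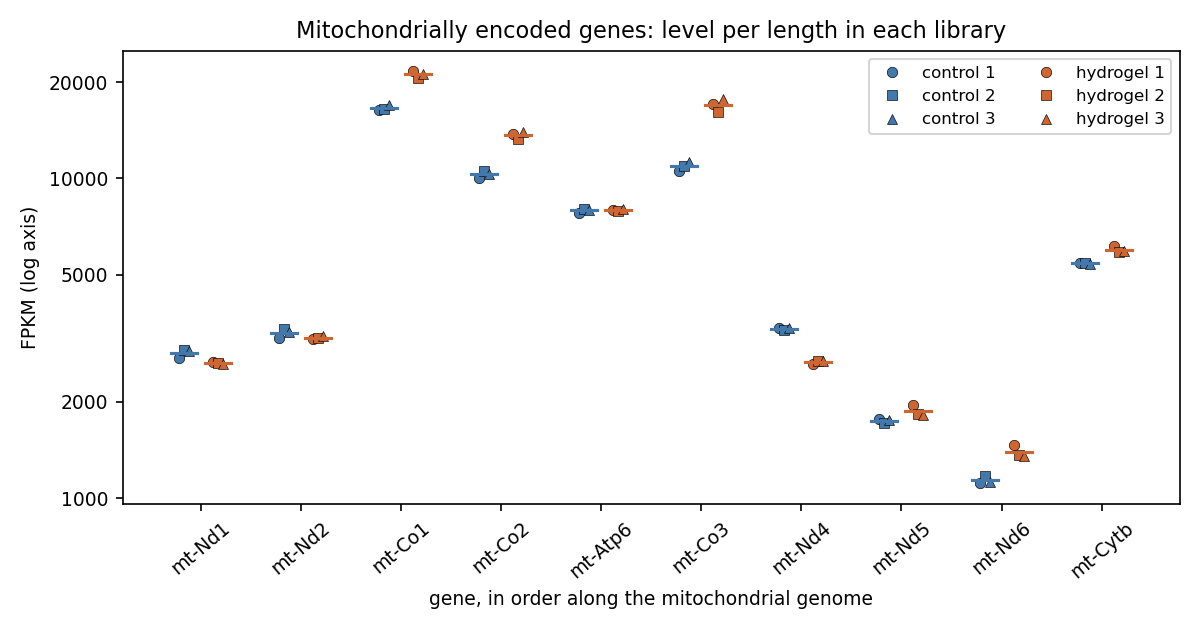
Level of each gene in FPKM (log axis) in the 6 libraries, with genes in their order along the mitochondrial genome, controls in blue, hydrogel in orange, symbols for the library number and short lines for group means. The orange points of mt-Co1, mt-Co2 and mt-Co3 stand clear above the blue ones (for mt-Co3, 16977 against 10892 FPKM on average), those of mt-Nd4 lie below, and those of mt-Atp6 lie among them.

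Complex I showed no common direction. The level of mt-Nd4, a subunit of its proton-pumping membrane arm, was 3398, 3347 and 3399.9 FPKM in the controls and 2623, 2690.3 and 2674 FPKM with hydrogel. All hydrogel libraries were below all controls, and neither group spread by much (coefficients of variation 0.89% and 1.31%). Its edgeR log2 fold change was -0.32 (SE 0.03, 0.80-fold, adjusted p = 2.61e-06), and mt-Nd4 was the 1 gene of the 10 that fell.

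The level of mt-Nd1, which lies where the membrane arm meets the ubiquinone site, was 2743, 2907 and 2891 FPKM in the controls and 2666, 2648 and 2633 FPKM with hydrogel. The hydrogel libraries lay just below the controls, with control 1 nearest to them. The log2 fold change was -0.08 (SE 0.04) and mt-Nd1 was not called (edgeR adjusted p = 0.12). It was called without control library 1, at a log2 fold change of -0.11 (edgeR adjusted p = 0.038), and with library totals alone as the scaling, at -0.10 (edgeR adjusted p = 0.034). The adjusted p ran from 0.034 to 0.44 over its 18 alternatives. The level of mt-Nd2, another pump subunit, was 3171, 3373 and 3312 FPKM in the controls and 3133, 3163 and 3207 FPKM with hydrogel. The groups overlapped, and the edgeR estimate of -0.03 on the log2 scale (SE 0.04, adjusted p = 0.62) was smaller than its error.

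The level of mt-Nd5, a further pump subunit, was 1764, 1714 and 1751 FPKM in the controls and 1949, 1837 and 1817 FPKM with hydrogel. Hydrogel 1 was the highest, and the groups did not overlap. In edgeR mt-Nd5 rose by 0.13 on the log2 scale (SE 0.04, 1.09-fold, adjusted p = 0.015). This call was lost without control library 2 (0.11, edgeR adjusted p = 0.071), in libraries 1 and 3 alone (0.12, edgeR adjusted p = 0.11) and in limma's test on log2(FPKM + 1) (0.10, adjusted p = 0.17). Over the 18 alternatives of mt-Nd5 the adjusted p ran from 0.0083 to 0.36.

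The level of mt-Nd6, the complex I gene on the opposite strand, was 1112, 1175 and 1125 FPKM in the controls and 1462, 1365 and 1352 FPKM with hydrogel. All hydrogel libraries were above all controls, with hydrogel 1 again the highest. Its edgeR log2 fold change was 0.32 (SE 0.04, 1.25-fold, adjusted p = 3.73e-05). The sources used here do not say whether counting used strand, so reads of the heavy-strand precursor across mt-Nd6 cannot be told apart from those of the gene itself. Set against the mean log2 FPKM of the other 9 genes, mt-Nd6 was at -2.28, -2.23 and -2.30 in the controls and -2.04, -2.11 and -2.15 with hydrogel. The difference was 0.16 on the log2 scale, without overlap (exact two-sided permutation p = 0.1, the smallest that 3 against 3 libraries allow). As a share of the summed FPKM of the 10, which the complex IV genes dominate, mt-Nd6 was at 1.79% ± 0.04 and 1.80% ± 0.07 (SD, n = 3; exact permutation p = 0.9).

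Cytochrome b, from mt-Cytb, carries some of the haem groups of complex III and its quinone sites. Its level was 5420.3, 5447 and 5414 FPKM in the controls and 6155, 5861 and 5932 FPKM with hydrogel. The controls nearly coincided and all hydrogel libraries were higher. In edgeR mt-Cytb rose by 0.17 on the log2 scale (SE 0.03, 1.12-fold, adjusted p = 0.00095). The call was lost in limma's test on log2(FPKM + 1) (0.14, adjusted p = 0.12), and the adjusted p of mt-Cytb ran from 6.68e-05 to 0.50 over its 18 alternatives. ATP synthase subunit a, from mt-Atp6, forms part of the proton path beside the rotor. Its level was 7802, 8019 and 7983 FPKM in the controls and 7976, 7919 and 8026 FPKM with hydrogel. These FPKM values interleaved. In CPM, scaled by TMM, every hydrogel library lay above every control, at means of 5481 with hydrogel and 5358 in controls. The log2 fold change of mt-Atp6 was 0.03 (SE 0.03, edgeR adjusted p = 0.48).

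**Figure D2:**
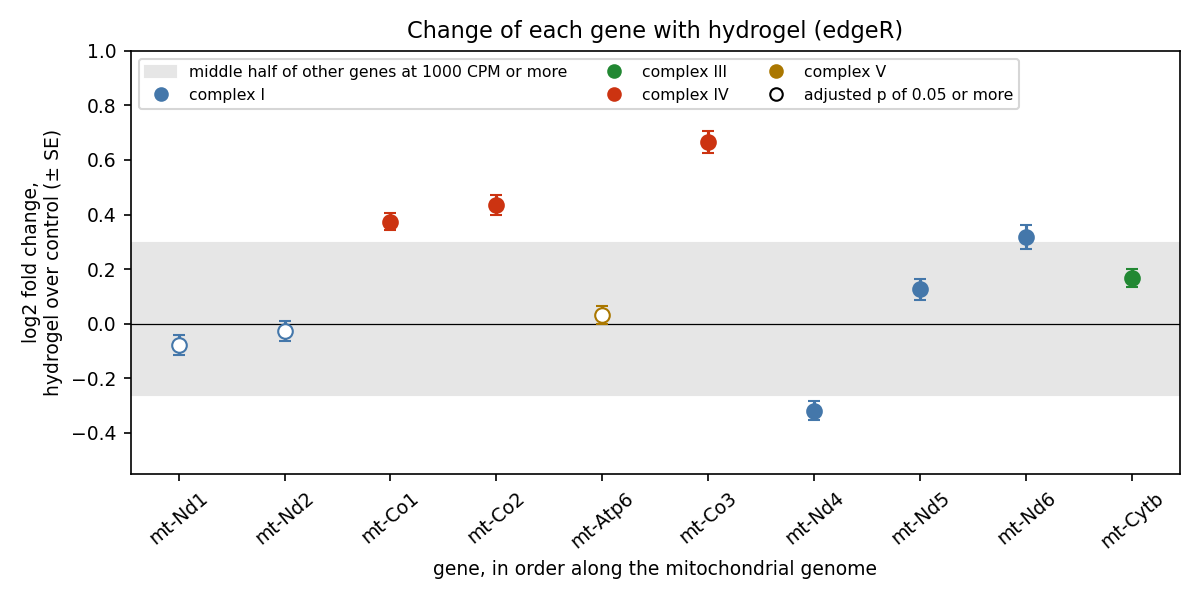
Log2 fold change (hydrogel over control, edgeR) of each gene with its SE, in genome order and coloured by complex, with open symbols for genes that were not called and a grey band for the middle part (interquartile range, -0.26 to 0.29) of the 79 other genes at 1000 CPM or more. The complex IV genes lie above the band at 0.37 to 0.67, as does mt-Nd6 of complex I at 0.32, while mt-Nd4 lies below it at -0.32, and mt-Atp6, between mt-Co2 and mt-Co3 in the genome, lies near 0.

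Neighbours on the genome differed in their changes. The gene mt-Atp6 lies between mt-Co2 and mt-Co3 and, as background, shares its border with mt-Co3 without a tRNA between them. The log2 ratio of mt-Co3 to mt-Atp6 in FPKM was 0.43, 0.45 and 0.49 in the controls and 1.09, 1.03 and 1.15 with hydrogel. The log2 ratio of mt-Co3 to mt-Nd4 was 1.63, 1.71 and 1.72 in the controls and 2.70, 2.58 and 2.73 with hydrogel, a difference of 0.98. Both ratios were higher in every hydrogel library than in any control (exact two-sided permutation p = 0.1 each, the smallest possible). These 2 pairs, and the ratio of complex IV to complex I, were chosen after their values were seen. Such ratios are taken within a library, so library scaling cannot move them. The genes mt-Co2, of 684 bp, and mt-Atp6, of 681 bp, had log2 fold changes of 0.44 and 0.03. Whether gene length bears on the changes was not tested, and 1 pair cannot tell. In the authors' counting, reads could be split where genes overlap, as mt-Atp6 and mt-Nd4 do with smaller mitochondrial genes that are not analysed here, and nuclear copies of mitochondrial sequence could share reads with any of the 10.

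The make-up of the mitochondrial mRNAs shifted towards complex IV in every hydrogel library. Of the summed FPKM of the 10 genes, complex IV held 59.2, 59.4 and 59.8% in the controls and 66.8, 66.3 and 67.3% with hydrogel. Complex I held 19.6, 19.6 and 19.4% in the controls and 15.1, 15.5 and 14.9% with hydrogel. The gap between the groups was far wider than the spread within them for both. Complex V, as mt-Atp6, went from 12.5% ± 0.06 to 10.3% ± 0.16 and complex III, as mt-Cytb, from 8.54% ± 0.14 to 7.72% ± 0.16 (SD, n = 3). For mt-Cytb the share was lower with hydrogel although its level was higher, since a share also moves with the complex IV genes in its denominator. None of the 4 shares overlapped between groups (exact two-sided permutation p = 0.1 each and 0.1 after Benjamini-Hochberg adjustment over 4 tests, the smallest possible). The log2 ratio of complex IV to complex I was 1.60, 1.60 and 1.62 in the controls and 2.15, 2.10 and 2.18 with hydrogel.

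**Figure D3:**
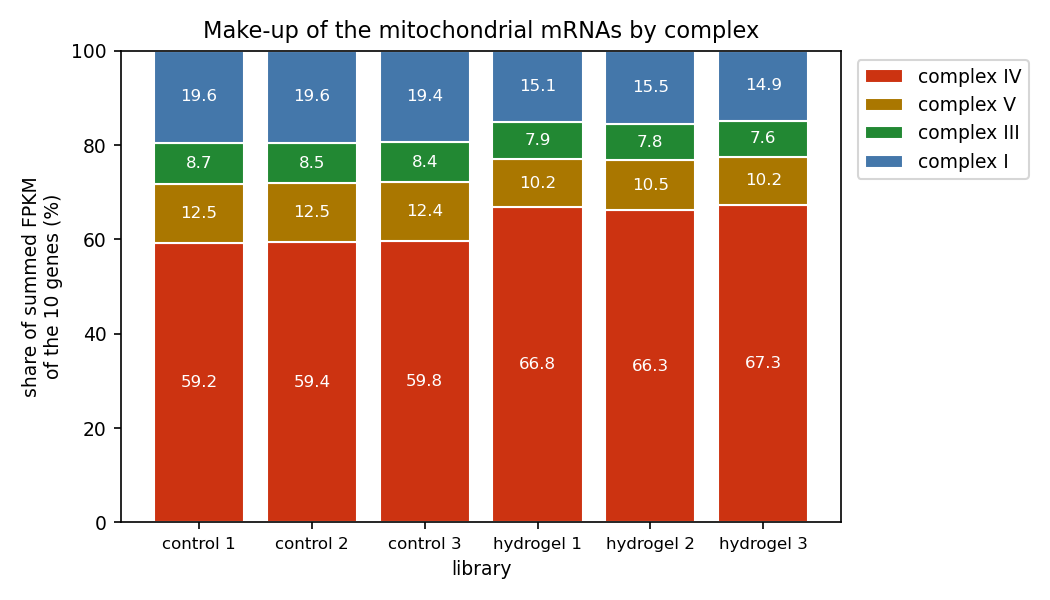
Share of each complex in the summed FPKM of the 10 genes (stacked bars, % of the sum, 1 bar per library). The complex IV part lies between 59.2 and 59.8% in the controls and between 66.3 and 67.3% with hydrogel, while the complex I part with hydrogel lies between 14.9 and 15.5%.

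By single genes, mt-Co3 gained most of this share, from 17.1% ± 0.27 to 21.9% ± 0.64 (SD, n = 3). The share of mt-Co2 was 16.2% ± 0.28 and 17.6% ± 0.14 and that of mt-Co1 26.1% ± 0.30 and 27.3% ± 0.32. The shares of mt-Nd4 (5.32% ± 0.11 and 3.44% ± 0.11), mt-Nd1 (4.48% ± 0.07 and 3.42% ± 0.08) and mt-Nd2 (5.17% ± 0.09 and 4.09% ± 0.09) were lower with hydrogel, as was that of mt-Nd5 (2.74% ± 0.08 and 2.41% ± 0.09). In FPKM, by contrast, mt-Nd5 was higher with hydrogel, and the groups overlapped for mt-Nd2 and mt-Atp6. Of the 10 shares, 9 did not overlap between the groups, the exception being mt-Nd6. All shares have the same denominator, which the complex IV genes dominate, so they move together and are not separate results. Each of the 9 had an exact two-sided permutation p of 0.1, or 0.11 after Benjamini-Hochberg adjustment over 10 tests.

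Summed, the 10 genes took a larger part of the libraries with hydrogel, a rise in FPKM of the size of that of the 3 complex IV genes alone. Together the 10 genes held 6.63, 6.76 and 6.83% of all counts in the controls and 8.23, 7.93 and 8.20% with hydrogel, without overlap and with hydrogel 2 the lowest of its group. The difference of the means was 1.38 percentage points (exact two-sided permutation p = 0.1, the smallest possible). Per length, they held 15.2% ± 0.14 and 17.8% ± 0.29 of the summed FPKM of all genes (SD, n = 3). In RNA from whole cultures, fewer cells of a type and less RNA per cell cannot be told apart, and the mitochondrial share of reads is also used as a sign of cell and RNA quality. Whether such quality took part in the difference was not tested.

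Levels per length spanned a wide range. In controls the order of mean FPKM was mt-Co1, mt-Co3, mt-Co2, mt-Atp6, mt-Cytb, mt-Nd4, mt-Nd2, mt-Nd1, mt-Nd5 and mt-Nd6, from 16607 to 1138 FPKM, a 14.6-fold range, or 9.53-fold among the 9 genes of the heavy-strand precursor (down to mt-Nd5). The libraries of neighbours in that order overlapped for mt-Co3 and mt-Co2 and for mt-Nd4 and mt-Nd2. With hydrogel the range was 15.2-fold. There mt-Co3 lay above mt-Co2 in every library, mt-Nd2 lay above mt-Nd4, and mt-Nd4 and mt-Nd1 overlapped. By mean FPKM over the 6 libraries, 8 of the 10 were among the 20 highest genes, all but mt-Nd5 and mt-Nd6.

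**Figure D4:**
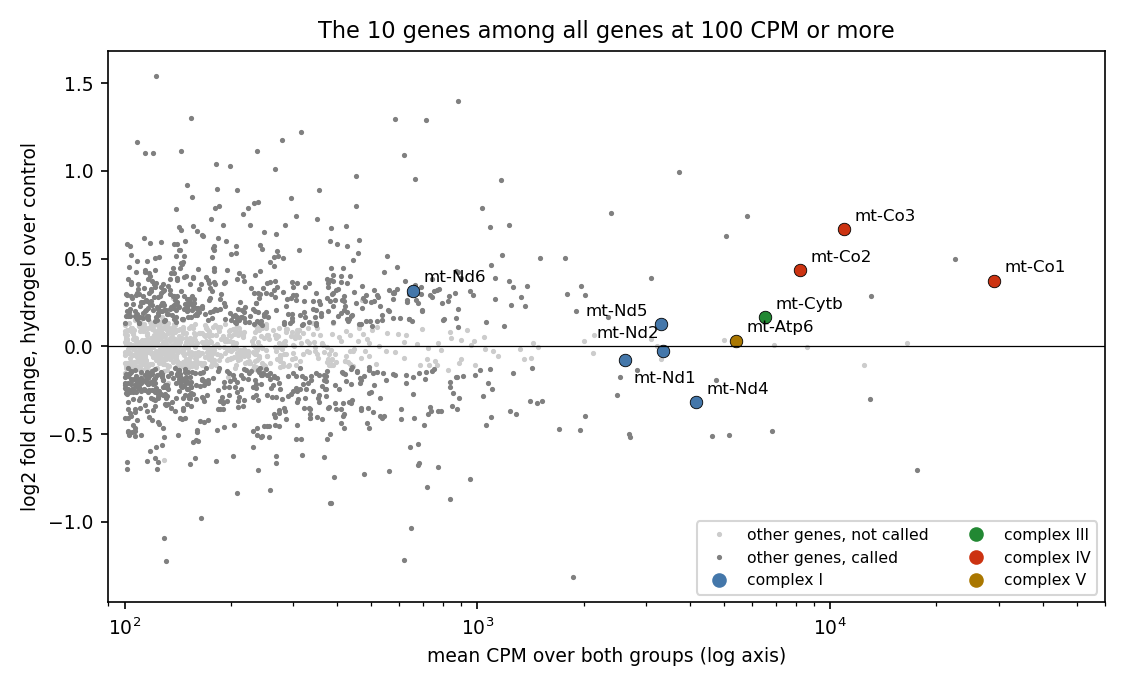
Log2 fold change against mean CPM (log axis) for all genes at 100 CPM or more, with other genes in grey (darker where called) and the 10 mitochondrial genes coloured by complex. The 10 lie at the abundant end and fall within the vertical spread of other abundant genes, from -0.32 for mt-Nd4 to 0.67 for mt-Co3.

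The groups did not overlap in CPM for 9 of the 10 genes, all but mt-Nd2, beside 47.3% of all genes tested and 79.7% of the 79 abundant genes. In FPKM, which is scaled by library total and not by TMM, the groups overlapped for mt-Atp6 as well. Each member had at least 20526 counts in every library, so counting error was at most 0.70% of a value and the spread between libraries, not depth, set the precision. Without a filter on low values, limma's test on log2(FPKM + 1) called neither mt-Co1 (adjusted p = 0.49), mt-Co2 (0.24) nor mt-Co3 (0.11), although their log2 differences of 0.35, 0.41 and 0.64 were close to edgeR's. Over their 18 alternatives the adjusted p ran up from 3.24e-32 for mt-Co1, 3.20e-32 for mt-Co2 and 1.96e-81 for mt-Co3 to these values. The 18 alternatives gave every one of the 10 genes the same direction.

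Among 8726 other genes that averaged 10 CPM or more, those most like the summed CPM of the 10 over the 6 libraries were ENSRNOG00000006604 (Pearson r = 0.999, Spearman rho = 0.94) and ENSRNOG00000018390 (r = 0.999, rho = 1.00), with log2 fold changes of 0.29 and 0.22. The 6 points fall into the 2 treatment groups, and 1257 of the 8726 genes had r above 0.9, so the likeness mostly restates a difference between the groups. The nuclear-encoded respiratory chain genes, the genes that transcribe and process mitochondrial RNA, and the markers of other cell types are not analysed here, because no identifier beyond the 10 could be paired with a symbol.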

How the data were processed

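Per the labels' protocols, TRIzol served for total RNA and a VAHTS Universal V6 kit for the libraries. The authors deposited raw counts per gene for 6 libraries, with no normalization, and FPKM values per library, which are those counts divided by the library total and 1 length per gene, as checked on the files. The submitters' processing notes list GRCm38 and mm10, which are mouse builds, while the identifiers carry the rat Ensembl prefix. The 4 matching lengths came with the list and do not settle the species. The genome behind the counts stays unclear, so coordinates are left out. The aligner, counter, strandedness and poly(A) selection are not given in the sources used here.

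Library totals ran from 30601703 to 93728651 counts, with library 2 the deepest in both groups. Replicates of 1 group differed by more than counting noise in every pair (chi-square per degree of freedom 6.17 to 16.5), so none was treated as a library deposited again; whether libraries shared a culture is not known. Tests used edgeR 4.0.16 (R 4.3.3): filterByExpr, TMM, quasi-likelihood F test with group as its only term, fitted on all genes. SE came from the fold change and F. Shares and ratios were compared by exact permutation (scipy 1.17.1). Alternatives used DESeq2 1.42.0, limma 3.58.1 (FPKM with a pseudocount of 1 or 0.1, mean FPKM of at least 0.1), other scalings, no filter, a robust fit, a replicate block and each library left out. The members were set by identifier, but they, the lists and the tests were chosen with earlier results of these data known. Named genes are the 10 and the 2 others closest to their summed level.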

Additional observations from a re-analysis of the deposited data

How the results depend on the processing

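Over the alternatives run, the direction held for the fold change of each of the 10 genes (18 alternatives each), for the summed levels, the 4 complex shares, the mt-Nd6 level relative to the other 9 and the 3 ratios. The number of genes called higher among the 10 was 6. It was 4 in limma on log2(FPKM + 1) and on log2(FPKM + 0.1), 1 in limma on log2(FPKM + 1) with no filter and 5 in libraries 1 and 3 alone; the cause was not tested. The number called lower was 1, and 2 with library totals alone, where mt-Nd1 was added. Leaving out 1 library gave 5 to 6 higher (5 without control 2, where mt-Nd5 was lost) and 1 to 2 lower (2 without control 1). The deep libraries numbered 2, 1 per group with no test, gave smaller differences in several quantities: 1.17 percentage points of all counts, 11575 FPKM in the sum, 6.88, -4.07 and -2.05 percentage points in the shares of complexes IV, I and V, and 0.50 in the log2 ratio of complex IV to complex I. Larger differences were seen there in the shares of mt-Co1 (1.53 against 1.15 percentage points) and, slightly, mt-Nd2 (-1.086 against -1.079). The share of mt-Nd6 differed by 0.008 percentage points, by -0.029 in the libraries numbered 2, and by -0.026 to 0.046 with 1 library left out, turning without control 3 and without hydrogel 1. On a TPM scale, chosen after seeing the data, the summed difference was 26332 TPM. A replicate block on the sample number called 5246 genes in place of 5079, and 6 higher and 1 lower among the 10. After each gene's group mean was taken off its log2 CPM, the deviations left in same-numbered libraries correlated at 0.022, 0.051 and 0.013. These correlations run over all genes tested and cannot decide whether libraries were paired. The numbers were not taken as pairs because the labels do not tie them to animals or days. The gene list alternatives were not run, for lack of gene names. Depth set no limit for genes this abundant.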
